A study of Homo sapiens with 8 samples.

Results

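HCl3 and Ni-W, a pair of nickel-washed-out populations of BEAS-2B cells, were compared with each other. Members were chosen by label, and they were the 2 HCl3 libraries and the 2 Ni-W libraries, 4 of the 8 RNA-Seq libraries of the series. BEAS-2B cells were derived from human bronchial epithelium and immortalised. Both groups were labelled as cells kept in 100 µM NiCl2 for 6 weeks, after which colonies grown from single cells were isolated and expanded in medium without nickel. Ni-W was a single such population, picked at random and kept in culture for more than 6 months after exposure. The labels of HCl3 repeated the same treatment text, and how long it had been without nickel and how it relates to Ni-W were not given. The HCl3 libraries were numbered as experiments 3 and 4 and the Ni-W libraries carried no number, so experiment and group cannot be told apart. Each group is a single population, and the spread between its 2 libraries holds no spread between populations. The other libraries, 2 from untreated cells (UT) and 2 from cells in nickel for 6 weeks (Ni-E), are given only as reference levels.

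Clones grown from single cells of a treated culture share the exposure but descend from different cells. Differences that the founding cells carried, in chromosome number or in the silencing of genes, can therefore be inherited by a whole clone, as can differences that arose during expansion. Nickel ions are known to inhibit iron-dependent dioxygenases, among them the enzymes that mark the hypoxia-inducible factors for degradation and several histone and DNA demethylases. The question addressed here was which gene functions differed between the washed-out populations.

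The 4 libraries held 31141364 to 45692298 counted reads. In both groups the replicate libraries differed beyond sampling noise, and the biological coefficient of variation was 0.0452 in HCl3 and 0.0696 in Ni-W. Of 11 markers of airway epithelium, 3 reached 1 RPKM (read counts scaled for gene length and for library depth) in both populations, namely EPCAM, KRT8 and KRT18. CDH1, the epithelial cadherin, was at 0.05 and 0.07 RPKM in HCl3 and 0.07 and 0.11 in Ni-W, and the basal cell factor TP63, the alveolar marker SFTPC and the ciliated cell factor FOXJ1 were at 0. The summed level of 9 fibroblast markers was 641 to 670 RPKM in HCl3 and 398 to 413 RPKM in Ni-W, and COL1A1 carried most of it. Markers of endothelium summed to at most 0.16 RPKM and those of blood cells to 2.88 to 4.27 RPKM in these libraries. Of the 5 mesothelial markers, WT1 differed between the groups, at 2.65 and 2.58 RPKM in HCl3 and 0.56 and 0.78 in Ni-W and 5.86 and 7.53 in UT. In bulk libraries, fewer cells with a transcript and less of it per cell cannot be told apart.

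DESeq2 tested 14956 genes and called 713 (4.77%), at an adjusted P value below 0.05 together with a change of 1.5-fold or more. Of these, 464 (3.10%) were higher and 249 (1.66%) lower in HCl3 than in Ni-W, the shares beside which the counts for gene lists below stand. All P values below are from this test, adjusted with the Benjamini-Hochberg method over the 14956 genes, and log2 fold changes (log2 change for short) are those of normalised counts, HCl3 against Ni-W, with their standard errors. With 2 libraries against 2, regrouping the libraries cannot bring any one gene below a P value of 0.05, so the values rest on a spread that the model shares across genes. The study's methods call the libraries of a group biological replicates and do not say whether these were separate cultures. The median absolute log2 fold change of the 713 genes was 1.02 and the median standard error 0.23, and 85 genes were more than 4-fold higher and 63 more than 4-fold lower. The median over all genes tested was -0.00. Without HCl3 replicate 1 the count fell to 391 genes and without HCl3 replicate 2 to 327, and it was 458 without Ni-W replicate 1.

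The level in UT was placed beside these differences as a description, since UT libraries took no part in the test. Genes called lower in HCl3 were chosen as low there and high in Ni-W, and the reverse holds for genes called higher. The share over all genes tested is therefore not a like comparison for either set. Of the 249 genes lower in HCl3, 221 (88.8%) had a mean UT level nearer to HCl3 than to Ni-W, against 52.0% of all genes tested. UT lay below both populations for 186 of them (74.7%), and 104 (41.8%) were under 0.1 RPKM in both UT libraries, against 8.66% of all genes tested. On the log2 scale these 249 genes had a median difference from UT of 0.99 in HCl3 and of 2.71 in Ni-W. Of the 464 genes higher in HCl3, 173 (37.3%) had a UT level nearer to HCl3, so in this set too UT was more often nearer to the population with the lower level. Of the 464, 75 (16.2%) were under 0.1 RPKM in both UT libraries. UT lay below both populations for 186, between them for 191 and above both for 87.

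**Figure D1:**
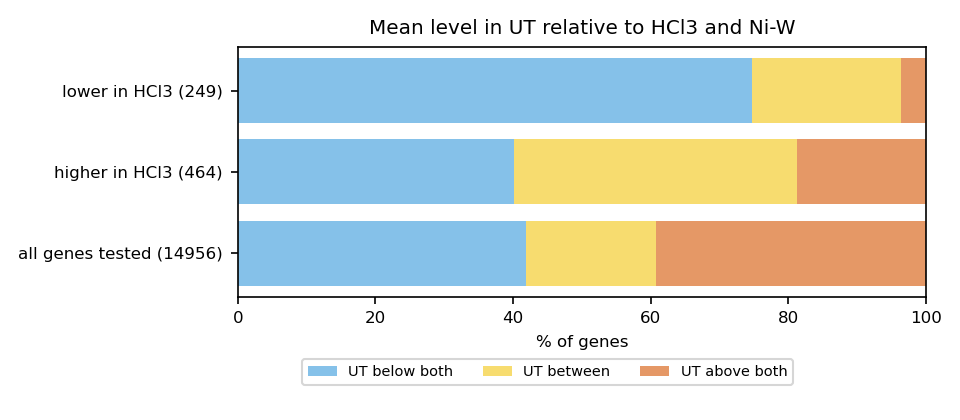
Share of genes (horizontal axis, %) whose mean log2 level in UT lay below, between or above the means of HCl3 and Ni-W, for the 249 genes lower in HCl3, the 464 higher in HCl3 and the 14956 tested. UT lay below both populations for 74.7% of the genes lower in HCl3 and 40.1% of those higher in HCl3.

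Among the 12 largest increases in HCl3 with a mean normalised count of at least 50, the largest was NRK (hg19, chromosome X, 105066536 to 105202602), which encodes a Nik-related protein kinase. It had 121 and 115 reads in HCl3 and 0 and 0 in Ni-W, which against a floor of 3 reads in each Ni-W library was at least 38.4-fold higher (adjusted P value 2.84e-08). SELENBP1 (chromosome 1, 151336778 to 151345210), which encodes a methanethiol oxidase, was at 3.78 and 4.09 RPKM in HCl3 and 0.09 and 0.09 in Ni-W (log2 change 5.72 ± 0.50, adjusted P value 1.72e-27). UT had 4.53 and 4.05 RPKM of SELENBP1, so HCl3 was near the untreated level and Ni-W far below it. SLC2A3 (chromosome 12, 8071824 to 8088892), the glucose transporter GLUT3, was at 1.26 and 1.39 RPKM in HCl3 and 0.04 and 0.06 in Ni-W (log2 change 4.70 ± 0.45, adjusted P value 1.79e-23), while UT had 0.04 and 0.1 RPKM. The libraries of HCl3 and Ni-W did not overlap for any of these genes, which the choice of named genes required. TRIM58, which encodes a ubiquitin ligase, was at 2.45 and 2 RPKM in HCl3 and 0.11 and 0.11 in Ni-W and at 0 and 0.02 in UT (log2 fold change 4.38 ± 0.29). INHBB, the activin beta B chain, was at 1.93 and 1.53 RPKM in HCl3 and 0.21 and 0.14 in Ni-W (log2 fold change 3.27 ± 0.34). COL1A2, the alpha 2 chain of type I collagen, was at 2.05 and 2.01 RPKM in HCl3 and 0.25 and 0.18 in Ni-W (log2 fold change 3.21 ± 0.24), and UT had 0.24 and 0.18 RPKM. ITM2A, which encodes a membrane protein, was at 1.39 and 1.36 RPKM in HCl3 and 0.21 and 0.1 in Ni-W (log2 fold change 3.19 ± 0.49). For COL1A2 and ITM2A the Ni-W level was close to that of UT and HCl3 stood apart.

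M1AP, a meiosis gene, had 112 and 124 reads in HCl3 and 10 and 0 in Ni-W, and its difference (log2 change 4.80 ± 1.76, adjusted P value 0.0402) was lost without either HCl3 library. ZNF43, a zinc finger gene, was higher in HCl3 at 0.62 and 0.47 RPKM than in Ni-W at 0.03 and 0.08, and higher still in UT at 1.07 and 1.12. CGREF1, which encodes a growth regulator with EF hands, was at 1.65 and 1.44 RPKM in HCl3 and 0.21 and 0.14 in Ni-W, and it overlaps KHK on the opposite strand. The other names among the 12 were C14orf132, at 0.54 and 0.41 RPKM in HCl3 and 0.06 and 0.1 in Ni-W, and the protocadherin PCDHGA11, described below. Whether the counting used strand is not stated in the sources used here, so values of genes that overlap on opposite strands are uncertain. This applies to COBLL1, L3MBTL4, DSC2, DSG2, COL5A1, LOXL1, PLAU, GREM1, PDGFD, NTN4, H19, ESRP2, CDKN2A and CDKN2B below, besides the genes for which it is stated.

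Most of the 12 largest decreases were in genes that UT hardly expressed. RCAN2 (chromosome 6, 46188467 to 46459804), a regulator of the phosphatase calcineurin, had 0 and 0 reads in HCl3 and 168 and 123 in Ni-W, at least 48.1-fold lower in HCl3 (adjusted P value 7.07e-09), and was at 0 RPKM in both UT libraries. SYK (chromosome 9, 93589702 to 93660842), a tyrosine kinase that signals from immune receptors, was at 0.11 and 0.1 RPKM in HCl3 and 3.28 and 3.01 in Ni-W (log2 change -5.02 ± 0.28, adjusted P value 2.13e-69) and at 0 in UT. LPHN2, an adhesion receptor of the latrophilin family, was at 0.22 and 0.22 RPKM in HCl3 and 4.16 and 4.56 in Ni-W (log2 change -4.33 ± 0.20, adjusted P value 7.35e-102). In each of these genes Ni-W stood apart and HCl3 lay near UT. GHR, the growth hormone receptor, was at 0.06 and 0.05 RPKM in HCl3 and 0.85 and 0.98 in Ni-W, and FREM2, a basement membrane protein, was at 0.03 and 0.03 RPKM in HCl3 and 0.29 and 0.33 in Ni-W. The cadherin DCHS2 and the ectoenzyme gene ENPP5 had the same pattern, with log2 fold changes of -3.16 ± 0.51 and -3.33 ± 0.35. COBLL1, L3MBTL4 and LRRK2 had log2 fold changes of -7.90 ± 0.75, -4.50 ± 0.97 and -3.61 ± 0.49, and the adjusted P value of each rose above 0.05 without either Ni-W library. L3MBTL4 differed from the others in that UT, at 0.84 and 0.59 RPKM, was closer to Ni-W (1.13 and 0.98) than to HCl3 (0.08 and 0.01).

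TSNAX-DISC1, a read-through gene, was also in this list, with 0 and 1 reads in HCl3 and 202 and 195 in Ni-W. The ratio of Ni-W to HCl3 was 391, with a 95% exact interval of 69.8 to 15480 for counting error only. It shares its exons with DISC1, which had 245 and 253 reads in HCl3 and 94 and 11 in Ni-W. The counts of both genes together were 245 and 254 in HCl3 and 296 and 206 in Ni-W, so reads of this locus were divided differently between the annotated genes while their sum overlapped between the groups.

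**Figure D2:**
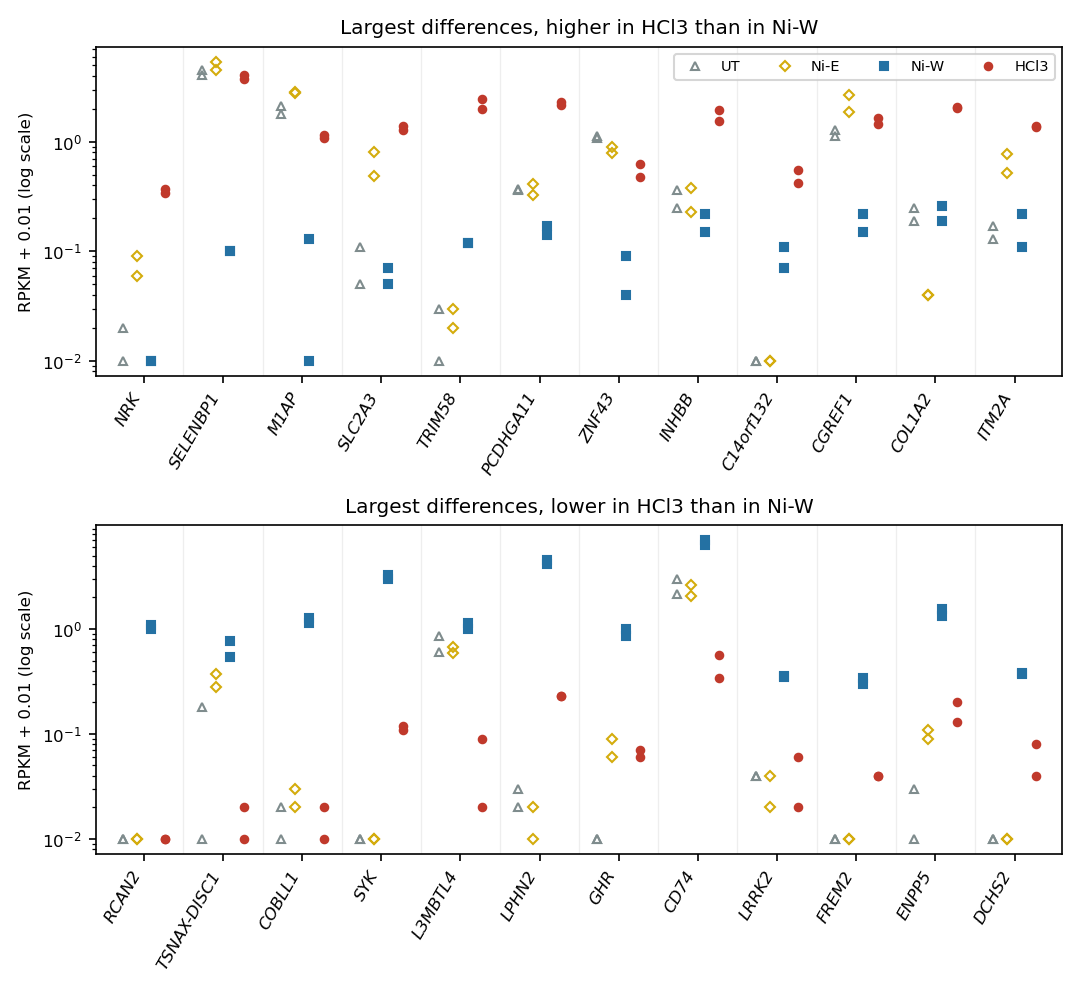
RPKM per library (vertical axis, log scale after adding 0.01) for the 12 largest increases (top) and 12 largest decreases (bottom) of HCl3 against Ni-W, with each point a library of UT, Ni-E, Ni-W or HCl3. In the lower panel SYK, LPHN2, GHR and FREM2 have HCl3, UT and Ni-E libraries at or below 0.22 RPKM and Ni-W libraries at or above 0.29 RPKM.

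Interferon-stimulated genes held the largest share of differences among 49 lists of genes. These genes are switched on when interferons, acting through STAT and IRF factors, signal the presence of viral nucleic acid. Of 42 tested, 17 were higher in HCl3 and 1 lower, or 42.9% against 4.77% of all genes tested, with a median log2 fold change of 0.36, and 35 of the 42 had a value above 0. IFITM1 (chromosome 11, 313991 to 315272), which blocks virus entry at membranes, was at 19.98 and 20.6 RPKM in HCl3 and 4.58 and 3.04 in Ni-W (log2 change 2.38 ± 0.20, adjusted P value 4.48e-29), and UT had 7.02 and 4.07 RPKM. OASL was at 3.65 and 3.43 RPKM in HCl3 and 0.93 and 0.93 in Ni-W (log2 change 1.98 ± 0.24, adjusted P value 3.01e-14) and OAS2, an oligoadenylate synthetase, at 6.68 and 6.05 RPKM in HCl3 and 2.24 and 1.92 in Ni-W (log2 change 1.75 ± 0.16, adjusted P value 6.23e-27). MX1 and MX2, dynamin-like antiviral GTPases, had log2 fold changes of 1.22 ± 0.11 and 1.47 ± 0.18, and MX1 was at 13.7 and 13.04 RPKM in HCl3 and 5.72 and 5.16 in Ni-W. In each of these genes both HCl3 libraries were above both Ni-W libraries, which the choice of IFITM1, OASL, OAS2 and MX2 required. IFIT1, which binds viral RNA, was at 6.1 and 5.57 RPKM in HCl3 and 2.85 and 2.78 in Ni-W and at 3.32 and 3.18 in UT (log2 fold change 1.03 ± 0.13). ISG15, a ubiquitin-like modifier, was at 92.6 and 95.8 RPKM in HCl3 and 56.2 and 46.95 in Ni-W (log2 fold change 0.85 ± 0.10), with UT at 62.6 and 39.8 RPKM.

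The other 10 increases are named because they passed the test and not by the rule for named genes. They were IFI44L, IFI27, DDX58, IFIT2, OAS1, IFI44, IFI6, IRF9, IRF7 and SAMD9L. IFI44L was low, with 47 and 21 reads in HCl3 and 1 and 0 in Ni-W. DDX58, the RIG-I sensor of viral RNA, was at 5.95 and 6.08 RPKM in HCl3 and 2.66 and 2.67 in Ni-W, and IRF7, a factor that drives interferon genes, at 8.19 and 8.24 RPKM in HCl3 and 5.62 and 4.52 in Ni-W. IRF9, the partner of the STAT factors, was at 10.7 and 10.8 RPKM in HCl3 and 7.03 and 6.04 in Ni-W, and STAT2 had a log2 fold change of 0.19 (adjusted P value 0.196). GBP2, a guanylate-binding protein that responds to interferon gamma, went the other way at 1.64 and 1.67 RPKM in HCl3 and 5.74 and 4.66 in Ni-W (log2 change -1.67 ± 0.16, adjusted P value 2.39e-24). Without HCl3 replicate 1 the count of higher genes was 11, without HCl3 replicate 2 it was 14, and it was 15 to 18 without a Ni-W library. Removal of the trends with GC content and length left it at 17.

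**Figure D3:**
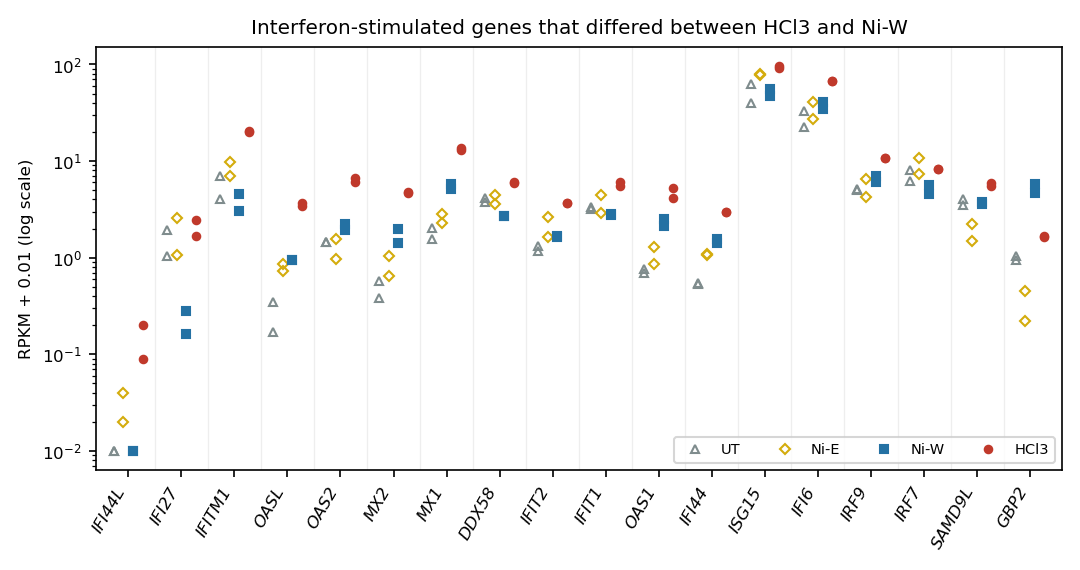
RPKM per library (vertical axis, log scale after adding 0.01) of the 18 interferon-stimulated genes that differed between HCl3 and Ni-W, in order of their log2 fold change, with each point a library. The HCl3 points lie above the Ni-W points for 17 genes and below them for GBP2.

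Promoters of 3 members are shown because the list is defined by a shared response, whose DNA motif can be read in them. Sequences are from RefSeq (GRCh38.p14), run from 250 bases before to 50 after the annotated start of the gene, and have in capitals the motif of GAAA, any 2 bases and GAAA, on either strand. IFITM1 (chr11:313790-314089, plus strand) and IFIT1 (chr10:89392373-89392672, plus strand) differed between the populations. IFITM3 (chr11:320811-321110, minus strand), the neighbour of IFITM1, is shown as a member that did not pass the test, at 230.2 and 246 RPKM in HCl3 and 226 and 179 in Ni-W (log2 change 0.22 ± 0.10, adjusted P value 0.134).
IFITM1: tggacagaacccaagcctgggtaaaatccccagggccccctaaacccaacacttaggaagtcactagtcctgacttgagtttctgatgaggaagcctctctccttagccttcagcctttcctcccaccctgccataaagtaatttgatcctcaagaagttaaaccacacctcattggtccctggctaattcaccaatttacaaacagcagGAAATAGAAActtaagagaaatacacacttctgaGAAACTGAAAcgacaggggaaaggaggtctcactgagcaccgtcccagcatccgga
IFITM3: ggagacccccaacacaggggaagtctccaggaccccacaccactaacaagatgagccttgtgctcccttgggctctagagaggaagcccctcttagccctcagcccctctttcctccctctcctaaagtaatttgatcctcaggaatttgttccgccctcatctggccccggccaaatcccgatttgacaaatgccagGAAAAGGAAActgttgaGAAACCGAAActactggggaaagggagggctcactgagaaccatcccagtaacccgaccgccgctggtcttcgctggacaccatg
IFIT1: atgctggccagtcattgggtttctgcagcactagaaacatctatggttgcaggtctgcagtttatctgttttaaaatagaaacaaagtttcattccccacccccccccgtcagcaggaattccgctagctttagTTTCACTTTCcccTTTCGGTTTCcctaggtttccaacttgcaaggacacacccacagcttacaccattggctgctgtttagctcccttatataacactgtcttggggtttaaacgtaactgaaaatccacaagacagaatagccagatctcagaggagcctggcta
Each promoter holds 2 matches, which in IFIT1 lie on the minus strand. The motif was found in the promoters of 23 of 32 members with a promoter entry, out of 42 in the list, and of 4.38% of 27305 genes. Among members higher in HCl3 it was found in 8 of 12, and among the others in 15 of 20. OASL, OAS2, MX2, IFIT2 and IRF7 were higher in HCl3 but had no promoter entry and were not searched. Among the members searched, the motif was no more frequent in those higher in HCl3 than in the rest. This search was chosen after the expression values were known.

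Hypoxia-inducible genes are targets and parts of the system that senses oxygen through the HIF factors. Of 29 tested, 6 were higher in HCl3 (20.7%, against 3.10% of all genes tested), with a median log2 fold change of 0.36, and 26 had a value above 0. DESeq2, edgeR and limma called no member lower, and 2 were lower at an unadjusted P value under 0.05. ANGPTL4, a secreted inhibitor of lipoprotein lipase, was at 12.9 and 13.4 RPKM in HCl3 and 3.73 and 2.97 in Ni-W (log2 change 1.95 ± 0.15, adjusted P value 1.02e-35), and UT had 0.31 and 0.25 RPKM. Its adjusted P value was 0.0556 with all 8 libraries in a single fit. EGLN3, a prolyl hydroxylase that marks HIF for degradation, was at 3.35 and 3.66 RPKM in HCl3 and 1.28 and 0.77 in Ni-W (log2 change 1.74 ± 0.24, adjusted P value 2.71e-11). ADM, the vasodilator adrenomedullin, was at 116 and 121 RPKM in HCl3 and 50.5 and 48.6 in Ni-W (log2 change 1.24 ± 0.08, adjusted P value 1.18e-54), and at 191 and 207 in UT, above both populations. The remaining members past the test were CA9, described next, and LOX and STC2, with log2 fold changes of 0.77 and 0.76, the last 2 named because they passed the test. VEGFA, the endothelial growth factor, had a log2 fold change of 0.44 and NDRG1 of 0.37, with adjusted P values of 0.000976 and 0.000157 but under 1.5-fold. HIF1A itself, named after its value was seen, was at 80.3 and 75.4 RPKM in HCl3 and 48.3 and 53.9 in Ni-W (log2 change 0.58 ± 0.08, adjusted P value 4.33e-11), just under 1.5-fold, and overlaps HIF1A-AS2.

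CA9, carbonic anhydrase 9, was at 20.1 and 21.4 RPKM in HCl3 and 8.95 and 5.12 in Ni-W and 0.81 and 0.5 in UT. Both HCl3 libraries were above both Ni-W libraries, whose own values differed from each other, and the difference (log2 change 1.54 ± 0.39, adjusted P value 0.000967) was lost without either HCl3 library. Its 10 Mb window on chromosome 9 had a median log2 fold change of 0.41, and the part of this shift in the value of CA9 was not tested. The promoter of CA9 (chr9:35673678-35673977, plus strand, GRCh38.p14) is shown because it holds the letters ACGTG, the core of the hypoxia response element, on the minus strand, with the match in capitals.
CA9: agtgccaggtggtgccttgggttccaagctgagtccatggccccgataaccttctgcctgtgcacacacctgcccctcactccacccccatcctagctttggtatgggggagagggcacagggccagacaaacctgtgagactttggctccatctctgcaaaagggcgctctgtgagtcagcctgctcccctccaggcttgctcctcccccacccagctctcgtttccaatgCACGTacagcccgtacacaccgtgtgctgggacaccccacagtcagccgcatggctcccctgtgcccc
ACGTG on either strand was found for 14 of 26 members with a promoter entry, 3 of the 6 that were higher in HCl3 and 11 of the 20 others, and for 24.9% of 27305 genes.

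Of 24 genes of glycolysis and lactate export, 2 were higher in HCl3 (8.33%), SLC2A3 and the aldolase ALDOC, at 12.7 and 13.2 RPKM in HCl3 and 6.27 and 4.21 in Ni-W (log2 change 1.28 ± 0.17, adjusted P value 7.07e-12). Values above 0 were found for 22 of 24, with a median of 0.27. SLC2A1, the GLUT1 transporter, HK2, PGK1 and LDHA had log2 fold changes of 0.43, 0.47, 0.28 and 0.26, with adjusted P values of 1.07e-06, 2.35e-07, 0.00177 and 0.00183, all under 1.5-fold. Of the 43 subunits of the respiratory chain none was called by DESeq2, edgeR or limma, and at an unadjusted P value under 0.05 there were 16, with a list median of -0.09. Without Ni-W replicate 2, 1 subunit was called higher and 2 lower.

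Among genes of the extracellular matrix, most of those that passed the test were higher in HCl3. Of 25 collagens, 7 were higher (28%), with a median of 0.30 and 16 values above 0. DESeq2, edgeR and limma called none lower, and 3 were lower at an unadjusted P value under 0.05. COL1A1, the major chain of type I collagen, was at 431 and 454 RPKM in HCl3 and 218 and 245 in Ni-W (log2 change 0.92 ± 0.08, adjusted P value 6.37e-30), and UT had 390.2 and 338 RPKM, between the populations. COL6A2, a chain of type VI collagen, was at 56.5 and 57.1 RPKM in HCl3 and 24.6 and 22 in Ni-W (log2 change 1.27 ± 0.08, adjusted P value 8.77e-52), and UT had 9.84 and 6.72 RPKM. COL5A1, a chain of fibrillar type V collagen, was at 29.1 and 29.8 RPKM in HCl3 and 17.6 and 19.01 in Ni-W (log2 fold change 0.67 ± 0.08). Each of these was above both Ni-W libraries in both HCl3 libraries, which the choice of COL6A2 required. COL5A1 fell under 1.5-fold once GC and length trends were removed, and with all 8 libraries in a single fit its adjusted P value was 0.387. COL6A3 was at 0.45 and 0.44 RPKM in HCl3 and 0.26 and 0.2 in Ni-W in a window with a median of 0.38, and its call was lost without either HCl3 library or Ni-W replicate 2. Without either HCl3 library or Ni-W replicate 2, 4 collagens were called, 5 without Ni-W replicate 1, and 4 with all 8 libraries in a single fit. With the GC and length trends removed there were 6 calls and a median of 0.17.

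Of 30 matrix proteases and inhibitors, 8 were higher (26.7%), with a median of 0.34, or 0.22 once GC and length trends were removed. DESeq2 called none lower, edgeR called 1, limma at most 1, and 2 were lower at an unadjusted P value under 0.05. TIMP3, a matrix-bound inhibitor of metalloproteinases, was at 16.1 and 16.02 RPKM in HCl3 and 4.78 and 5.7 in Ni-W (log2 change 1.6 ± 0.10, adjusted P value 8.04e-52), and overlaps SYN3 on the opposite strand. LOXL1, which crosslinks elastin, was at 11.2 and 12.9 RPKM in HCl3 and 6.06 and 5.58 in Ni-W, and ADAM12, a membrane protease, at 6.99 and 6.76 RPKM in HCl3 and 3.19 and 3.48 in Ni-W, each with a log2 fold change of 1.03. HCl3 and Ni-W libraries did not overlap for TIMP3, LOXL1 and ADAM12, which the choice of these genes required. SERPINE2 lies in a window of chromosome 2 with a median of 0.36, and its own value was 0.66 ± 0.10, which fell under 1.5-fold once that median was subtracted. PLAU and MMP2, both tissue-remodelling proteases, had 0.40 ± 0.08 and 0.14 ± 0.20.

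Among 35 matrix glycoproteins and proteoglycans, 5 were higher (14.3%) and 2 lower (5.71%). TGFBI, an adhesion protein induced by TGF-beta, was at 499.7 and 513 RPKM in HCl3 and 232 and 212 in Ni-W (log2 change 1.18 ± 0.07, adjusted P value 4.91e-60), and UT had 94.3 and 95.95 RPKM. IGFBP4, which binds insulin-like growth factors, was at 56.2 and 58.3 RPKM in HCl3 and 27.6 and 30.7 in Ni-W, and the proteoglycan SPOCK1 at 9.46 and 9 RPKM in HCl3 and 5.12 and 5.45 in Ni-W. FN1, fibronectin, was at 117 and 121 RPKM in HCl3 and 82.1 and 82.8 in Ni-W (log2 change 0.51 ± 0.07, adjusted P value 9.47e-13), under the 1.5-fold threshold. It lies in a window of chromosome 2 with a median of 0.33, and its lowest value among the alternatives was 0.18. SPARC had -0.10 ± 0.07 (adjusted P value 0.315). FBLN5, a fibulin of elastic fibres, was lower, at 0.77 and 0.48 RPKM in HCl3 and 1.76 and 1.34 in Ni-W (log2 change -1.34 ± 0.32, adjusted P value 0.000459), and NOV, a matricellular protein, at 3.86 and 3.66 RPKM in HCl3 and 6.25 and 6.16 in Ni-W. Without HCl3 replicate 2 neither of these decreases passed the test, and without Ni-W replicate 1 FBLN5 did not.

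**Figure D4:**
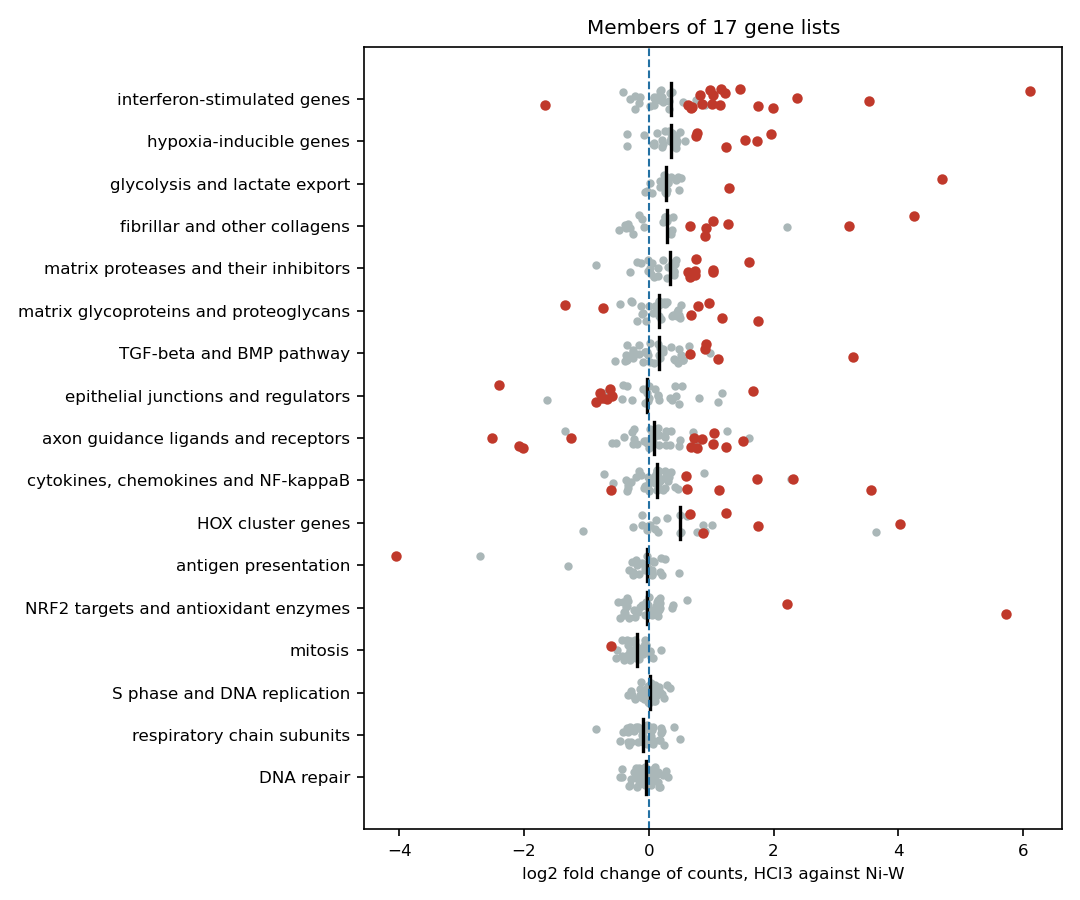
Log2 fold change of HCl3 against Ni-W (horizontal axis) for the tested members of 17 gene lists, with red points for genes that passed the test, a black bar at the list's median and a dashed line at the median of all genes tested. The interferon list has 17 red points to the right and a median of 0.36, while DNA repair and the respiratory chain have no red point.

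Of 35 epithelial junction genes and regulators, 7 were lower (20%) and 1 higher (2.86%), with a list median of -0.03. Most of the 7 encode parts of desmosomes, the junctions that tie the keratin filaments of neighbouring epithelial cells together, a grouping made after the values were seen. DSC2 (chromosome 18, 28645942 to 28682388), a desmosomal cadherin, was at 1.22 and 1.13 RPKM in HCl3 and 6.23 and 5.97 in Ni-W (log2 change -2.40 ± 0.13, adjusted P value 8.62e-68), and UT had 1.19 and 0.99 RPKM, the level of HCl3. DSC3, a related desmosomal cadherin, was at 15.3 and 14.3 RPKM in HCl3 and 25.6 and 27.4 in Ni-W (log2 change -0.85 ± 0.08, adjusted P value 3.08e-24), and PKP2, a plakophilin of the same junction, was at 3.12 and 2.84 RPKM in HCl3 and 5.04 and 5.14 in Ni-W (log2 change -0.79 ± 0.13, adjusted P value 1.21e-07). The desmosomal genes DSG2 and JUP had -0.63 ± 0.08 and -0.59 ± 0.08, and the protease inhibitor SPINT1 had -0.67 ± 0.12, all 3 named because they passed the test. DSG2 was lost without HCl3 replicate 2 or Ni-W replicate 2, and JUP without HCl3 replicate 1 or Ni-W replicate 1. ELF3, an epithelial transcription factor, was at 9.18 and 10.3 RPKM in HCl3 and 17.9 and 14.5 in Ni-W. DSP, which encodes the desmosomal protein desmoplakin, lay in the other direction, with 8.31 and 8.49 RPKM in HCl3 and 5.49 and 5.72 in Ni-W and a log2 fold change of 0.54 ± 0.09. ESRP2, a splicing regulator of epithelial cells, was higher, at 0.61 and 0.89 RPKM in HCl3 and 0.19 and 0.29 in Ni-W, a call lost without HCl3 replicate 2 or Ni-W replicate 1. CDH1 and EPCAM had adjusted P values of 0.707 and 0.409.

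DSC2, DSC3 and DSG2 lie together on chromosome 18, in a window whose median log2 fold change was -0.28. When the median of its window was subtracted from every gene, 2 of the 35 genes were lower and 2 higher, and DSC2 and PKP2 remained lower while DSC3, DSG2, JUP, SPINT1 and ELF3 did not pass. The part of the regional shift in these differences was not tested.

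Of 19 mesenchymal cadherins, related adhesion genes and transcription factors of the epithelial to mesenchymal transition, 3 were lower (15.8%) and 1 higher (5.26%). CADM3, an immunoglobulin-like adhesion molecule, was at 2.17 and 2.42 RPKM in HCl3 and 6.98 and 6.49 in Ni-W (log2 change -1.57 ± 0.14, adjusted P value 1.08e-26) and overlaps the antisense gene CADM3-AS1. CDH11, a cadherin of mesenchymal cells, was at 0.35 and 0.38 RPKM in HCl3 and 1 and 1.08 in Ni-W (log2 change -1.52 ± 0.31, adjusted P value 2.4e-05). CDH4 was higher, at 0.44 and 0.44 RPKM in HCl3 and 0.07 and 0.13 in Ni-W (log2 change 2.23 ± 0.41, adjusted P value 2.37e-06). UT had at most 0.03 RPKM of these genes. CDH2, the neural cadherin, had -0.15 ± 0.09 (adjusted P value 0.328), and the transcription factors ZEB1 and SNAI2 had 0.09 ± 0.14 and 0.06 ± 0.30 (adjusted P values 0.768 and 0.943). VIM, vimentin, was at 1515 and 1527 RPKM in HCl3 and 816 and 992 in Ni-W (log2 change 0.73 ± 0.09, adjusted P value 1.76e-14), with VIM-AS1 on the opposite strand.

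In signalling pathways, differences went in both directions. Of 40 genes of the TGF-beta and BMP pathway, 5 were higher (12.5%), INHBB among them. DESeq2, edgeR and limma called none lower, and 8 were lower at an unadjusted P value under 0.05. NOG and GREM1, secreted antagonists of BMP ligands, were at 6.57 and 6.78 RPKM in HCl3 and 2.68 and 3.48 in Ni-W and at 33.7 and 33.2 RPKM in HCl3 and 17.1 and 18.1 in Ni-W (log2 fold changes 1.11 ± 0.18 and 0.91 ± 0.08). The ligand TGFB2 had -0.10 ± 0.09 and the target ID1 -0.01 ± 0.11. LTBP2 and LTBP3, which store latent TGF-beta in the matrix, completed the 5, and 3 of the 5 passed without either HCl3 library. Of 37 WNT genes, 4 were higher (10.8%) and 1 lower (2.7%). WNT5B, a ligand, was at 9.98 and 10.7 RPKM in HCl3 and 3.24 and 3.15 in Ni-W (log2 change 1.67 ± 0.14, adjusted P value 1.11e-28), the antagonist SFRP1 was lower at 2.57 and 2.61 RPKM in HCl3 and 4.41 and 4.33 in Ni-W (log2 change -0.77 ± 0.13, adjusted P value 4.75e-07), and the antagonist DKK1 was at 394 and 379 RPKM in HCl3 and 258 and 291 in Ni-W, under 1.5-fold. Apart from WNT5B the increases in the WNT list were lost without either HCl3 library or Ni-W replicate 1.

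Axon guidance genes, ligands and receptors that steer growing neurites and also cell migration, had 8 of 51 higher (15.7%) and 4 lower (7.84%). ROBO1, the receptor of SLIT ligands, was at 1.47 and 1.25 RPKM in HCl3 and 5.44 and 5.49 in Ni-W (log2 change -2.02 ± 0.12, adjusted P value 9.79e-58) and at 0 in UT, in a window of chromosome 3 with a median of -0.44, and it overlaps a gene on the opposite strand. SEMA3E, a secreted semaphorin, was at 0.14 and 0.25 RPKM in HCl3 and 0.71 and 0.9 in Ni-W (log2 change -2.07 ± 0.32, adjusted P value 7.3e-09). NTN4, a netrin, was higher, at 2.35 and 2.44 RPKM in HCl3 and 0.85 and 0.82 in Ni-W (log2 change 1.5 ± 0.21, adjusted P value 7.61e-11), as was SEMA3D at 2.23 and 2.01 RPKM in HCl3 and 0.89 and 1.15 in Ni-W (log2 change 1.05 ± 0.18, adjusted P value 3.02e-07). ROBO4, a relative of ROBO1, was at 1.63 and 1.76 RPKM in HCl3 and 0.74 and 0.67 in Ni-W, higher in HCl3 but not without HCl3 replicate 2, so members of the same receptor family differed in opposite directions. Without HCl3 replicate 1 the list had 5 higher genes, without HCl3 replicate 2 it had 3 higher and 2 lower, and without Ni-W replicate 1 it had 2 lower.

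Of 42 genes of ERBB, FGF and other growth factor signalling, 5 were higher and 5 lower (11.9% each). PDGFD, a platelet-derived growth factor, was at 0.05 and 0.09 RPKM in HCl3 and 0.56 and 0.59 in Ni-W (log2 change -3.14 ± 0.50, adjusted P value 2.44e-08) and at 0 in UT, and SYK was counted in the same list. FGF5, a ligand, was higher, at 2.1 and 1.59 RPKM in HCl3 and 0.65 and 0.92 in Ni-W, a call lost without HCl3 replicate 1, and DUSP4, a phosphatase that ends MAP kinase signals, at 2.39 and 2.31 RPKM in HCl3 and 1.09 and 1.3 in Ni-W (log2 change 0.97 ± 0.17, adjusted P value 4.25e-07). FGFR3, a receptor, was lower at 3.41 and 3.56 RPKM in HCl3 and 5.31 and 5.51 in Ni-W, while EGFR had 0.28 ± 0.09 (adjusted P value 0.00991). Without either HCl3 library 3 genes of the list were higher and 3 lower, without Ni-W replicate 1 there were 2 higher and 3 lower, and without Ni-W replicate 2 there were 3 lower.

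Cytokines and chemokines had 6 of 48 genes higher (12.5%) and 1 lower (2.08%). IL6 was at 15.4 and 17.2 RPKM in HCl3 and 11.9 and 9.09 in Ni-W (log2 change 0.62 ± 0.15, adjusted P value 0.000838) and CCL5 at 1.93 and 2.17 RPKM in HCl3 and 0.79 and 1.11 in Ni-W (log2 change 1.12 ± 0.37, adjusted P value 0.0183). The DESeq2 count of higher genes was 1 without Ni-W replicate 1, 0 without each of the other 3 libraries, and 1 with all 8 libraries in a single fit, while edgeR called 6 and 13 were higher at an unadjusted P value under 0.05. CXCL8 and NFKBIA, readouts of NF-kappaB, had adjusted P values of 0.535 and 0.388, and IL18 was lower, at 13.2 and 12.3 RPKM in HCl3 and 18.1 and 20.5 in Ni-W, a call lost without HCl3 replicate 2 or Ni-W replicate 2. The complement component C3 was lower, at 14.6 and 15.9 RPKM in HCl3 and 37 and 28.2 in Ni-W (log2 change -1.11 ± 0.11, adjusted P value 2.13e-21).

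In antigen presentation, 1 of 29 genes was called, 3.45% against 4.77% of all genes tested. This was CD74 (chromosome 5, 149781200 to 149792499), the invariant chain of class II molecules, at 0.33 and 0.56 RPKM in HCl3 and 7.02 and 6.35 in Ni-W (log2 change -4.05 ± 0.29, adjusted P value 1.76e-40), with UT between them at 2.99 and 2.12 RPKM. HLA-B and B2M, chains of class I molecules, had log2 fold changes of 0.06 ± 0.08 and -0.27 ± 0.07, within 1.5-fold, and edgeR called 2 genes of the list.

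Among 40 NRF2 targets and antioxidant enzymes, SELENBP1 and GSTM1 were higher (5%). DESeq2, edgeR and limma called none lower, and 13 were lower at an unadjusted P value under 0.05. GSTM1, a glutathione transferase, was at 8.17 and 8.36 RPKM in HCl3 and 2.13 and 1.38 in Ni-W (log2 change 2.21 ± 0.23, adjusted P value 1.23e-18), and UT had 6.92 and 7.62 RPKM, near HCl3. It belongs to a family of closely related genes, so reads may have been divided between copies. NQO1, the classical NRF2 target, was at 46.6 and 47.8 RPKM in HCl3 and 62.99 and 58.6 in Ni-W (log2 fold change -0.38 ± 0.08). HMOX1 had 0.15 ± 0.11 (adjusted P value 0.414). In metal handling, MT1E, a metallothionein, was higher at 16.5 and 16.8 RPKM in HCl3 and 11.9 and 7.89 in Ni-W (log2 change 0.73 ± 0.22, adjusted P value 0.00796), but not without either HCl3 library or Ni-W replicate 2, and MT2A and MT1X had adjusted P values of 0.599 and 0.804. SLC39A8, a zinc importer, was lower at 3.32 and 3.31 RPKM in HCl3 and 5.98 and 5.13 in Ni-W (log2 change -0.75 ± 0.16, adjusted P value 4.93e-05), a call lost without HCl3 replicate 1 or Ni-W replicate 1.

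Differences were also found among HOX genes and clustered protocadherins, while zinc finger (ZNF) genes were called at close to the share of all genes tested. Of 25 HOX genes, which set positional identity, 5 were higher (20%), with a median of 0.50 and 19 values above 0, and 0 were lower by DESeq2, edgeR, limma or at an unadjusted P value under 0.05. HOXB9 was at 3.4 and 3.67 RPKM in HCl3 and 1.04 and 1.04 in Ni-W (log2 change 1.75 ± 0.21, adjusted P value 7.64e-15), and UT had 3.67 and 4.4 RPKM. Without either HCl3 library 1 HOX gene passed, without either Ni-W library 2 passed, and edgeR called 9. Clustered protocadherins, adhesion molecules that single neurons choose at random, had 4 of 37 higher and 4 lower (10.8% each). PCDHGA11 was at 2.3 and 2.18 RPKM in HCl3 and 0.13 and 0.16 in Ni-W (log2 change 4.05 ± 0.28, adjusted P value 6.68e-46) and PCDHGB7 at 1.62 and 1.6 RPKM in HCl3 and 0.42 and 0.51 in Ni-W (log2 change 1.86 ± 0.25, adjusted P value 1.37e-11), while PCDHAC2 was lower, at 0.16 and 0.13 RPKM in HCl3 and 0.64 and 0.76 in Ni-W (log2 change -2.28 ± 0.33, adjusted P value 4.42e-10) and PCDHB5 at 2.49 and 2.32 RPKM in HCl3 and 4.41 and 4.46 in Ni-W. The gamma and alpha protocadherins share their last exons, so their counts are uncertain, and without each library in turn 3 genes were higher and 2 lower. In 470 ZNF genes, 14 were higher and 11 lower, or 5.32% against 4.77% of all genes tested. Without HCl3 replicate 1 and then replicate 2, 2 and 4 ZNF genes were higher and 5 lower, and without either Ni-W library 8 were higher.

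Of 24 imprinted genes, which are expressed from the chromosome of a single parent, 2 were higher (8.33%) and 3 lower (12.5%), and these counts were the same without each library in turn. H19, a maternally expressed RNA, was at 9.06 and 10.3 RPKM in HCl3 and 2.3 and 1.58 in Ni-W (log2 change 2.29 ± 0.18, adjusted P value 1.13e-35), and MEST, paternally expressed, at 127 and 125 RPKM in HCl3 and 52.9 and 55.4 in Ni-W (log2 change 1.21 ± 0.07, adjusted P value 2.25e-59). NLRP2 was lower, at 3.74 and 3.7 RPKM in HCl3 and 9.17 and 8.68 in Ni-W (log2 change -1.28 ± 0.12, adjusted P value 3.08e-24), and UT, at 7.74 and 7.8 RPKM, was nearer to Ni-W. SNRPN and SNURF, which share a transcript and cannot be told apart by reads, were at 8.72 and 9.37 RPKM in HCl3 and 15.8 and 14.3 in Ni-W for SNRPN and at most 0.17 RPKM in UT.

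Potassium channels had 7 of 40 genes higher (17.5%) and 2 lower (5%), and 2 to 5 higher and at most 1 lower when a library was left out. KCNIP3, a channel-interacting protein, was at 2.41 and 2.49 RPKM in HCl3 and 1.01 and 1.04 in Ni-W (log2 change 1.25 ± 0.23, adjusted P value 1.95e-06), and KCNS3, a silent channel subunit, was lower at 0.36 and 0.31 RPKM in HCl3 and 1.22 and 0.95 in Ni-W, though not without HCl3 replicate 2 or Ni-W replicate 1. Of 31 SOX and FOX transcription factors, 5 were higher (16.1%) and 1 lower (3.23%). SOX9, a factor of progenitor cells in the airway, was at 1.6 and 1.48 RPKM in HCl3 and 0.59 and 0.81 in Ni-W (log2 change 1.14 ± 0.25, adjusted P value 0.000112), a call lost without either HCl3 library or Ni-W replicate 1. FOXE1 was lower at 0.72 and 0.77 RPKM in HCl3 and 1.7 and 1.69 in Ni-W (log2 change -1.20 ± 0.24, adjusted P value 1.62e-05) and was at 0 in UT. Without HCl3 replicate 2 DESeq2 called 0 of the 31 higher, and without HCl3 replicate 1 or Ni-W replicate 1 it called 1, while edgeR called 6 and 11 were higher at an unadjusted P value under 0.05.

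In several processes of cell maintenance no gene passed the test. DESeq2, edgeR and limma called none of 46 genes of S phase, 48 of DNA repair, 55 of chromatin modification or 39 of the stress and unfolded protein responses, with 9, 13, 13 and 13 at an unadjusted P value under 0.05. Without Ni-W replicate 1, 1 chromatin gene and 1 stress gene were called lower. Mitotic genes had small differences, most of them in 1 direction. Of 48 tested, 23 had an adjusted P value under 0.05 (against 2476 of all 14956 genes), 28 were lower at an unadjusted P value under 0.05, and 5 had a value above 0, with a list median of -0.20. Log2 fold changes rose with GC content across genes (rho = 0.339), and the part of this trend in the list median is not given here. The kinesin KIF14 was the 1 gene past 1.5-fold, at -0.60 ± 0.08, a call lost without HCl3 replicate 2, with GC and length trends removed or when the median of its window, -0.28, was subtracted. TOP2A, the topoisomerase of dividing cells, was at 210.2 and 208 RPKM in HCl3 and 297 and 297 in Ni-W (log2 change -0.52 ± 0.06, adjusted P value 4.54e-14). It lies in a window of chromosome 17 with a median of -0.29, and its weakest value among the alternatives was -0.23. The part of this regional shift in the value of TOP2A was not tested. MKI67 had -0.29 ± 0.07. The list of CDK inhibitors and p53 targets had 4 of 39 genes higher (10.3%). Besides these classes it held the cyclin genes CCND1, CCND2 and CCND3, the kinase genes CDK4 and CDK6, and RB1 and RBL1. Among the 4 was CCND1, at 19.6 and 20.1 RPKM in HCl3 and 9.11 and 11.8 in Ni-W (log2 change 0.91 ± 0.11, adjusted P value 2.13e-13). Its adjusted P value was 0.278 with all 8 libraries in a single fit. CDKN2A and CDKN2B, neighbouring CDK inhibitors, had log2 fold changes of 0.59 ± 0.10 and 0.59 ± 0.12 in a window of chromosome 9 with a median of 0.22. Both calls were lost when that median was subtracted or Ni-W replicate 2 left out. CDKN1A had 0.25 ± 0.09. Without Ni-W replicate 2 this list had 1 gene higher, and without HCl3 replicate 2, with GC and length trends removed or with all 8 libraries it had 2.

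Along the chromosomes, differences of single genes lay on top of shifts of whole regions. Of 281 windows of 10 Mb with at least 10 expressed genes, 16 had a median log2 fold change beyond 0.3 in either direction, and medians ran from -0.44 to 0.43. The median over chromosome 3 was -0.23 over 704 genes, with 10 genes higher and 24 lower, and over chromosome 18 it was -0.28 over 181 genes. Low windows were not confined to these chromosomes. On chromosome 1 the windows from 140 to 250 Mb had medians of -0.22 to -0.32, and the window from 200 to 210 Mb had 9 genes lower and 0 higher. On chromosome 17 the windows from 20 to 40 Mb had medians of -0.32 and -0.29. On chromosome 2 the 4 windows from 210 to 250 Mb had medians of 0.33 to 0.43 and 2 to 9 genes higher in each. On chromosome 9 the window from 30 to 40 Mb had a median of 0.41 over 72 genes, 10 of them higher. Subtraction of the window medians, an alternative chosen after the data were seen, left 645 genes called, 439 higher and 206 lower, of which 618 were among the 713. Whether these regions differ in copy number between the populations was not measured here.

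**Figure D5:**
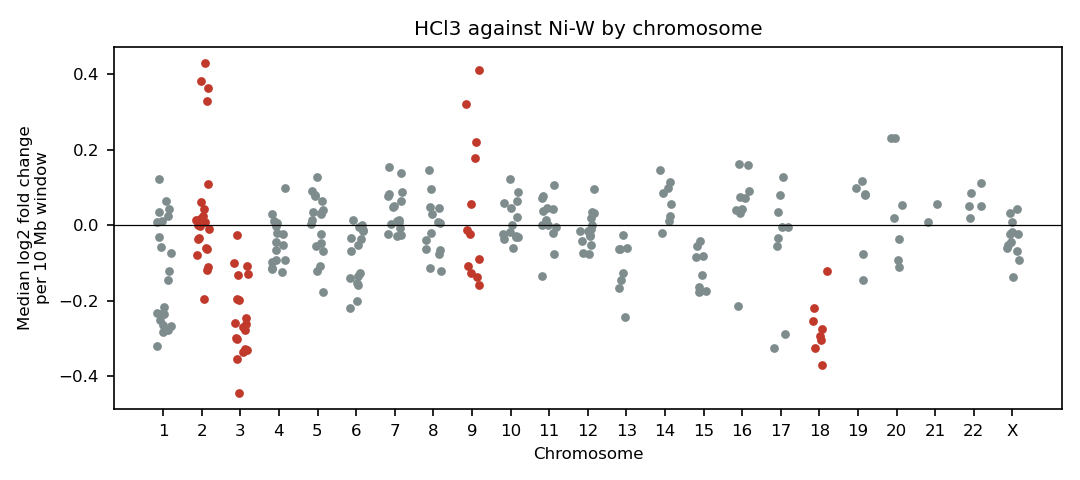
Median log2 fold change of HCl3 against Ni-W (vertical axis) in each of 281 windows of 10 Mb, grouped by chromosome (horizontal axis), with chromosomes 2, 3, 9 and 18 in red. The windows of chromosomes 3 and 18 lie below 0, and the highest windows, at 0.41 to 0.43, are on chromosomes 2 and 9. Windows down to -0.32 on chromosomes 1 and 17 are not marked in red.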

How the data were processed

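RNA-Seq libraries of BEAS-2B cells were analysed from a table with the deposited read counts and RPKM of 25411 genes. Per the labels and the study's methods, the authors aligned reads to hg19 with STAR 2.4 and tested the deposited counts with DESeq2, whose version is not given in the sources used here. The authors divided counts by gene length and depth to give the deposited RPKM. Their own fold changes and P values were not used.

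Counts of the 2 HCl3 and 2 Ni-W libraries (31141364 to 45692298 reads) were tested with DESeq2 1.42.0 in R 4.3.3 (Wald test, two-sided, with Benjamini-Hochberg adjustment and independent filtering). A gene was called at an adjusted P value under 0.05 and a change of at least 1.5-fold. RPKM are shown as levels. For some genes RPKM and counts are not proportional, so a level and a fold change can differ. The members and lists were chosen with earlier results of these data known. Named genes were the 12 largest differences per direction with a mean normalised count of at least 50 and groups that did not overlap, up to 4 per list and direction under the same conditions, and key genes of each list. Others are said to be named after their values were seen. Lists were described by counts and medians. Of 49 lists, those of cancer-testis and Y-linked genes had no member tested.

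Alternatives were edgeR 4.0.16, limma 3.58.1 on the log2 of RPKM with a pseudocount of 1 or 0.1, other filters, size factors, fold thresholds and libraries, thinned counts, removal of GC and length trends and a replicate block. Intervals and floors, the floor being 3 reads per library, cover counting error only. A few genes of the lists are not reported here.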

Additional observations from a re-analysis of the deposited data

Results flagged for a closer look

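Against UT, 14.8% of 15766 genes were called in HCl3 and 15.7% of 15826 in Ni-W, with the same UT libraries in both comparisons. Among these calls 5 genes went in opposite directions in the populations. The test of HCl3 against Ni-W called each of them, but the choice of genes on opposite sides of UT all but required this. That call is therefore no separate evidence, and how many such genes to expect was not estimated. The 5 genes are named for this pattern, after their values were seen. CD74, the class II invariant chain, was lower than UT in HCl3 (log2 fold change -2.69, adjusted P value 1.7e-09) and higher in Ni-W (1.36, adjusted P value 2.23e-07), and HCl3 differed from Ni-W by -4.05. ZNF518B, a zinc finger gene, was at 1.53 and 1.4 RPKM in HCl3 and 4.85 and 4.76 in Ni-W and 2.27 and 2.34 in UT, a log2 fold change of -1.73 between the populations (against UT, -0.71 in HCl3 and 1.02 in Ni-W). COCH, a secreted matrix protein, was higher than UT in HCl3 and lower in Ni-W, at 3.31 and 3.13 RPKM in HCl3 and 0.87 and 0.92 in Ni-W and 1.36 and 1.56 in UT, with a log2 fold change of 1.86 (against UT, 1.06 and -0.80). FAM50B, an imprinted gene, was at 6.05 and 6.32 RPKM in HCl3 and 1.61 and 1.3 in Ni-W and 3.28 and 2.35 in UT, with a log2 fold change of 2.07 (against UT, 1.07 and -0.99). TCEA3, an elongation factor, was at 1.61 and 1.83 RPKM in HCl3 and 0.28 and 0.43 in Ni-W and 0.88 and 0.86 in UT, with a log2 fold change of 2.28 (against UT, 0.93 and -1.33), and its adjusted P value rose to 0.0525 without HCl3 replicate 2. The other 4 differences passed under each of the 16 alternatives, which include each library left out.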

How the results depend on the processing

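The count of 713 genes (464 higher and 249 lower in HCl3) stayed within 1.5-fold with TMM size factors, edgeR, limma on log2(RPKM + 0.1), other filters on low counts, thinned counts, all 8 libraries in a single fit, GC and length trends removed, or window medians subtracted, an alternative chosen after seeing the data. It lay between 571 and 968 under these. Leaving out 1 library gave 327 to 530 genes, 205 to 350 higher and 122 to 180 lower, with fewer samples in each fit. With limma on log2(RPKM + 1) it was 347 (247 higher, 100 lower), and the larger pseudocount shrinks changes of low genes. At least 2-fold gave 369 (228 higher, 141 lower). With no fold threshold it was 2476, 1264 higher and 1212 lower, so the excess of higher genes was seen among the larger changes. The labels number repeats in both groups, but same-numbered libraries did not deviate together (r = -0.0535 across genes), and with 2 pairs the numbers were not read as pairs. A replicate block gave 455 genes (300 higher, 155 lower), and the replicate block with GC and length trends removed gave 451 (298 higher, 153 lower). Under the replicate block the adjusted P value of NRK was 0.152 and that of RCAN2 0.133. The cause of the lower counts under the block was not tested. The log2 fold change rose with GC content across genes (rho = 0.339), and differences between the HCl3 replicates (rho = -0.363) and between the Ni-W replicates (rho = 0.214) also followed GC content. Of 161 named genes that were called, 78 kept their call under each alternative in which they were tested, 69 lost it without at least 1 library, and 0 changed direction.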

Other observations

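Over all genes tested 3.10% were higher and 1.66% lower in HCl3. Among lists not described above, serpins, a family of protease inhibitors, had 4 of 18 genes higher (22.2%) and 2 lower (11.1%) in HCl3, with 2 or 3 higher when a library was left out and neither decrease kept. Solute carriers had 7 of 239 higher (2.93%) and 9 lower (3.77%), with 3 higher without either HCl3 library or Ni-W replicate 1 and 5 lower without HCl3 replicate 2 or Ni-W replicate 1. Heat shock proteins and co-chaperones had 1 of 33 higher (3.03%), a call lost without either HCl3 library, and genes of cholesterol and fatty acid synthesis 2 of 39 (5.13%), or 1 without either HCl3 library or with all 8 libraries in a single fit. Laminins and integrins had 2 of 25 higher (8%) and 1 lower (4%), with 1 higher when any 1 library was left out, and the decrease was lost without HCl3 replicate 2 or with GC and length trends removed. Of 84 cytosolic ribosomal proteins DESeq2 called 0, edgeR called 2, and limma called 2 with a pseudocount of 0.1 and 0 with a pseudocount of 1. At an unadjusted P value under 0.05 in DESeq2 there were 26, 22 lower and 4 higher, with a list median of -0.14. In iron handling, 1 of 14 genes was called, LCN2, lower in HCl3, and this call was lost when any 1 of the 4 libraries was left out.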
